A study of Mus musculus with 28 samples.

Results

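Strong overexpression of SIRT6 in the male liver was compared with its wild-type (WT) state across all expressed genes. The comparison took the 7 male SIRT6 transgenic (SIRT6-tg) and the 7 male WT libraries, 14 of the 28 RNA-seq libraries of the series, as their labels give sex and genotype. Genes with a mean normalized count of at least 0.5 over all libraries were taken as expressed, which left 21583 genes. T cell, MHC class II and fatty acid oxidation genes were set aside, and the families and processes beyond them are described here. The mice were C57BL/6JOlaHsd males aged 5 to 7 months on chow diet, and the WT mice carried no transgene. SIRT6-tg mice overexpressed SIRT6 in the whole body and all came from 1 transgenic line, the WT mice of the study were littermates, and livers were taken after a short fast. The promoter behind the transgene is not given in the sources used here. Whole liver was sequenced, so fewer cells of a type and less RNA per cell cannot be told apart. The female WT and female SIRT6-tg groups, with 7 libraries each, shared the same strain, tissue and age and serve only to show where the male effect differed.

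SIRT6 is a nuclear, NAD-dependent deacylase of the sirtuin family that removes acetyl groups from histone H3 and acts as a chromatin repressor. In liver it is known for its links to glucose and lipid metabolism, and in other settings for restraint of NF-kB target genes. The liver itself is mostly hepatocytes, which make plasma proteins, bile acids and the enzymes of amino acid breakdown, beside Kupffer cells (resident macrophages), stellate cells (the main source of collagen), endothelium and passing leukocytes.

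The stretches just before 6 of the lower genes are printed first. The first set holds 3 interferon-inducible GTPases, which act on vacuoles that enclose intracellular microbes, and the second holds 3 genes of macrophages and matrix turnover. They are shown because they hold a motif that was more frequent before lower genes than before all genes tested. Each line gives the 100 bases before the annotated gene start (RefSeq, GRCm38.p6), read 5′ to 3′ on the strand of the gene, with motif matches in capitals. The first 3 hold GAAACNGAA or its reverse complement, the repeated unit of an interferon response element, and the last 3 hold TGAGTCA or its reverse complement, the AP-1 element.
Tgtp1, chr11:48992247-48992346, minus strand: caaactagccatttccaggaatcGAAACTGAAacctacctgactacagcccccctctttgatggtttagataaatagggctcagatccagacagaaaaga
Igtp, chr11:58199456-58199555, plus strand: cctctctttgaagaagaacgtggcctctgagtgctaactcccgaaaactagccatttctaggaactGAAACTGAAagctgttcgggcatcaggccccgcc
Gbp7, chr3:142530236-142530335, plus strand: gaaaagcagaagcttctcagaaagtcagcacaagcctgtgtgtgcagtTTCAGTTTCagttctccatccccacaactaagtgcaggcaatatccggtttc
Itgax, chr7:128129450-128129549, plus strand: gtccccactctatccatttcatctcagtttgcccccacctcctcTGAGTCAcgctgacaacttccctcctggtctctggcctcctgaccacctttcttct
Fgl2, chr5:21372573-21372672, plus strand: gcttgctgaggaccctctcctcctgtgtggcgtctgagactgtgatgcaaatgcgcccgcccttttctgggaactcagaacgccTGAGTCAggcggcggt
Mmp13, chr9:7272414-7272513, plus strand: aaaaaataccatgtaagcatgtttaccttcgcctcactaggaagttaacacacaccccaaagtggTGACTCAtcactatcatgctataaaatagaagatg

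The motif began 77 bases before the start of Tgtp1, 34 before that of Igtp and 52 before that of Gbp7. Igtp and Gbp7 were chosen after their values were seen, for the motif. Igtp had a normalized count of 4817 ± 1547 (SD, n = 7) in WT and 725 ± 82.3 (SD, n = 7) in SIRT6-tg males. Gbp7 had 1907 ± 480.6 and 591 ± 101 in the same order. Of 16789 promoters of 13233 tested genes, counted over 250 bases before to 50 bases after each start and on both strands, 1.88% held GAAACNGAA. The share was 3.39% of the 2183 promoters of lower genes and 1.2% of the 2005 promoters of higher genes. TGAGTCA was found in 4.23% of all promoters, in 6.5% before lower and in 3.44% before higher genes. CCAAT went the other way, with 37.1% of all, 36% before lower and 42.1% before higher genes. The other elements were counted in the same way. CACGTG, the E-box, was held by 8.9% of all promoters and by 6.32% and 9.48% of those before lower and higher genes. TATAAA was held by 8.62%, 10.4% and 8.08% in that order, TTCNNNGAA by 7%, 8.29% and 6.48%, and GGAAGT, the ETS core, by 26.7%, 27.2% and 26.3%. TGACNNNGC was held by 14.1%, 13.8% and 12.9%, and CAAAGTCCA, an HNF4A element, by 0.524%, 0.412% and 0.648%. The median GC content was 59% before all tested and higher genes and 57% before lower genes. These shares are a description, and a match is not evidence that a factor binds.

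Sirt6 was checked first. In the 7 WT males its normalized count ran from 44.8 to 85.9 with a median of 73.3, and in the 7 SIRT6-tg males from 5263 to 9517 with a median of 7189. The groups lay far apart in every library, with a log2 fold change of 6.68 (SE 0.30, adjusted p = 1.78e-15). The files do not separate transgene reads from those of the native gene, which lies on chromosome 10, positions 81621785 to 81627797, minus strand, of GRCm38. The other sirtuins, deacylases of the nucleus (Sirt1, Sirt7), the cytosol (Sirt2) and mitochondria (Sirt3, Sirt4, Sirt5), moved little beside it. Sirt3 rose by 0.35 on the log2 scale (SE 0.08, adjusted p = 0.00148), Sirt2 by 0.28 (adjusted p = 0.006) and Sirt7 by 0.31 (adjusted p = 0.00868). Sirt5 lay at the threshold, with 0.49 (SE 0.18, adjusted p = 0.0477). It lost its call when any 1 of 10 libraries was left out, namely male WT 1, 2, 3, 4, 5 or 7 or male SIRT6-tg 1, 4, 5 or 7 (0.33 to 0.56 over all 14 libraries left out in turn). Nor did Sirt5 pass with RLE size factors (0.45), upper-quartile scaling (0.40), DESeq2 (0.45), filterByExpr (0.48), no low-count filter (0.49) or males only (0.46). The call held with 2 surrogate variables and with the replicate number as a block. Sirt1 and Sirt4 did not pass the test, with 0.13 and 0.21 (adjusted p = 0.431 and 0.138). Scaled by library size alone, the values were 0.07 for Sirt3, −0.00 for Sirt2, 0.02 for Sirt7 and 0.18 for Sirt5, and none of them passed the test. Sirt7 also did not pass under upper-quartile scaling (0.23), nor Sirt2 with males only (0.25).

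In the edgeR quasi-likelihood fit with Benjamini-Hochberg adjustment, 4467 genes (20.7% of those tested) differed between male SIRT6-tg and male WT, 2090 higher (9.68%) and 2377 lower (11%). The 2 directions differed in size. Of the lower genes 64.2% differed by at least 1 on the log2 scale, with a median of −1.26 over the 2377, whereas 7.03% of the higher genes did, with a median of 0.40. Lower genes were also the weaker expressed ones, with a median normalized count of 46.2 against 980 for higher genes. Over all genes tested the median was 67.7, so the higher genes lay further from it. The 7 and 7 libraries did not overlap in 939 of the lower genes and in 541 of the higher genes. How many genes count as higher depended on the scaling. Upper-quartile scaling gave 942 higher and 2649 lower genes, RLE size factors 1395 and 2511, DESeq2 1789 and 2631, and library size alone 210 and 4084. With 2 surrogate variables 4460 were higher and 2980 lower. TMM put the median log2 fold change of all genes at 0.06, RLE at 0.01, upper-quartile scaling at −0.02 and library size alone at −0.22. Fold changes and calls of single genes are given with this shift in them. TMM factors of the libraries lay between 1.06 and 1.17 in WT and between 0.821 and 0.993 in SIRT6-tg males. Without male WT 4, 1095 genes were higher, and without male WT 7, 1149.

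Total counts ran from 18758863 to 35393069 in male WT and from 22971163 to 29881526 in male SIRT6-tg libraries. In some libraries short transcripts carried relatively more counts than in others. The slope of log2 CPM on log2 transcript length, over 10919 protein-coding genes, lay between −0.252 and 0.103 in WT and between −0.295 and 0.0711 in SIRT6-tg males. With the 2 steepest libraries, male WT 6 and male SIRT6-tg 7, left out, 1501 genes were higher and 2220 lower. With the slope as a covariate, 4260 were higher and 2914 lower. Library numbers run in blocks of 1 genotype, so the order of processing and genotype cannot be told apart. Hepatocyte markers were high in every library, with summed normalized counts of 2748107 to 3825347 in WT and 3391578 to 4649037 in SIRT6-tg males. No marker of any cell type listed was at 0 in all males.

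**Figure D1:**
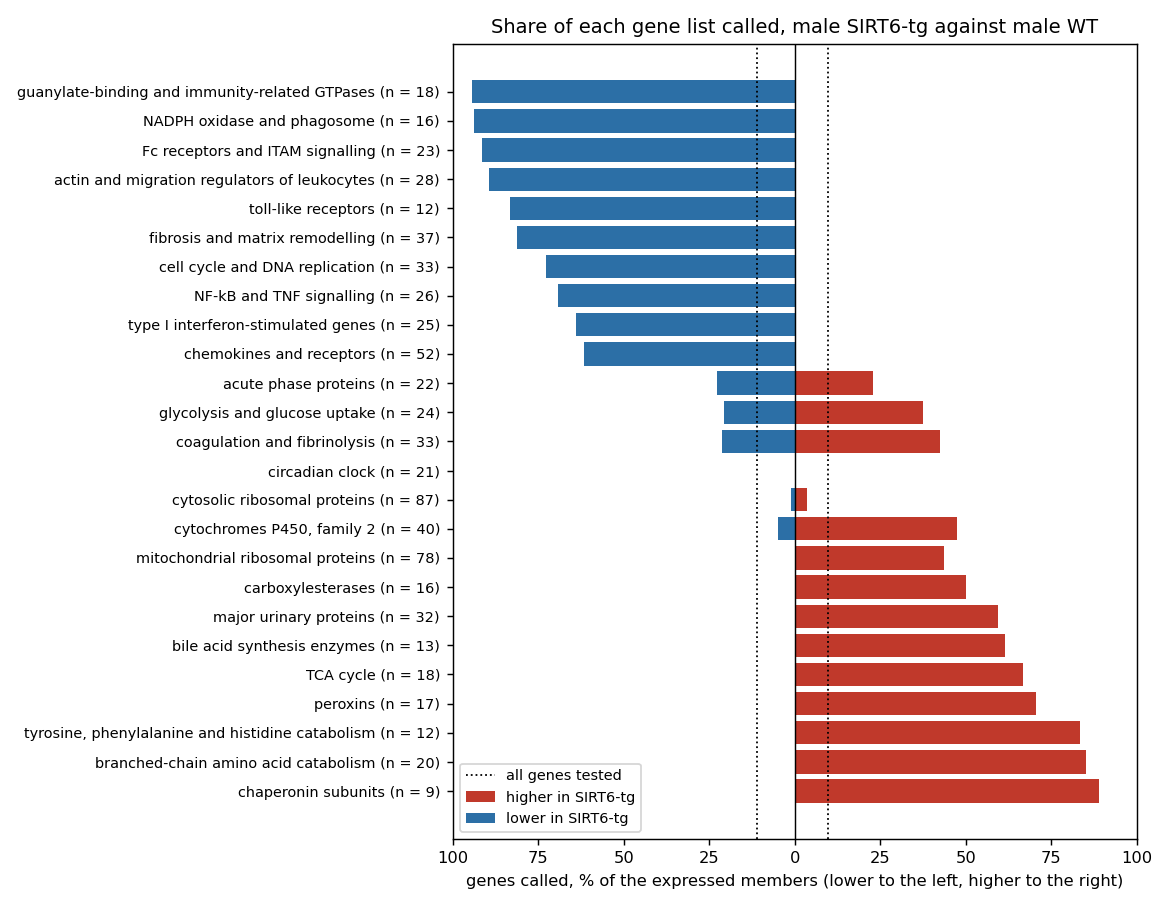
Share of the expressed members of 25 gene lists called different (adjusted p under 0.05) in male SIRT6-tg against male WT, lower genes as blue bars to the left and higher genes as red bars to the right, with n the number of members tested. Dotted lines give the share of all genes tested, 11% lower and 9.68% higher. Matrix, cell cycle and immune lists reach far to the left, amino acid, peroxisomal and bile acid lists far to the right, and the circadian list has no bar.

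Genes of extracellular matrix and fibrosis fell together. Of 37, 30 were lower and 0 higher, with a median log2 fold change of −1.12 against 0.06 over all genes. In 24 of the 37, no SIRT6-tg library reached any WT library. Over all 21583 genes tested the 2 groups were apart in 1506, in either direction. Col1a1, a chain of type I collagen and the protein of fibrotic scars, ran from 299 to 990 (median 650.0) normalized counts in WT and from 53.5 to 106.5 (median 85.6) in SIRT6-tg males. It fell by 2.99 on the log2 scale (SE 0.28, adjusted p = 1.66e-08). Its partner Col1a2 fell by 1.92 (SE 0.18, adjusted p = 1.34e-08), Col3a1, the fibrillar collagen of early scars, by 2.16 (SE 0.20, adjusted p = 1.87e-08), and Col6a3, of microfibrils around cells, by 1.55 (SE 0.15, adjusted p = 1.66e-08). All 4 were separate in every library. Across the collagen family 15 of 39 genes were lower and 1 higher. The higher one, Col27a1, a fibrillar collagen of cartilage, rose by 1.09 on the log2 scale (SE 0.14, adjusted p = 1.56e-06).

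Enzymes that cut matrix fell with the matrix itself. Of 18 matrix metalloproteinases 9 were lower and 0 higher, and of 21 ADAMTS proteases and relatives 10 were lower and 0 higher. Mmp12, the elastase of macrophages, ran from 75.9 to 565 (median 313) in WT and from 7.96 to 14.2 (median 9.28) in SIRT6-tg males. The difference was −4.94 on the log2 scale (SE 0.52, adjusted p = 1.05e-07). Mmp13, a collagenase, differed by −3.62 (SE 0.49, adjusted p = 2.93e-06) and Mmp2, a gelatinase of mesenchymal cells, by −1.44 (SE 0.18, adjusted p = 5.36e-07). Markers of stellate cells fell in 6 of 10, with a median of −0.57. Lrat, the retinol-storing enzyme of stellate cells, fell by 0.68 (SE 0.17, adjusted p = 0.00456), less than the collagens. Col1a1, Col3a1 and Dcn stand in both lists. The summed stellate markers ran from 14102 to 21491 in WT and from 11746 to 14880 in SIRT6-tg males, and their part in the matrix result was not tested. Summed markers of sinusoidal endothelium ran from 9492 to 12839 in WT and from 9160 to 11766 in SIRT6-tg males. Of the 10, 5 were lower by library size alone and 1 in the TMM fit. It was Pecam1, an adhesion protein of endothelium, at −0.37 (adjusted p = 0.0496), whose call was lost without any 1 of male WT 2, 4, 6 or 7 or male SIRT6-tg 1, 2, 3, 4 or 7 (−0.45 to −0.33 over all 14 libraries left out in turn).

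Genes of cell division formed the second group. Of 33 cell cycle and DNA replication genes 24 were lower and 0 higher, with a median log2 fold change of −1.33. Mki67, the standard mark of dividing cells, ran from 110.3 to 512 (median 233) normalized counts in WT and from 26.8 to 61.4 (median 48.8) in SIRT6-tg males. It fell by 2.30 on the log2 scale (SE 0.25, adjusted p = 1.29e-07). The highest WT value belonged to male WT 7 alone, above the other 6 at 110.3 to 247. Ccna2, the cyclin of S phase and mitosis, fell by 2.24 (SE 0.24, adjusted p = 7.24e-08), Top2a, which untangles replicated DNA, by 2.14 (SE 0.23, adjusted p = 8.79e-08), and Foxm1, the transcription factor of mitotic genes, by 2.44 (SE 0.34, adjusted p = 2.74e-06). The most abundant member that did not pass the test was Pcna, the replication clamp, at 0.13 (adjusted p = 0.503; −0.17 scaled by library size alone). Cdkn1a, the p21 brake on the cycle and a p53 target, fell too, by 1.84 (SE 0.34, adjusted p = 0.000219), and of 20 p53 targets 6 were lower and 2 higher (13 and 0 by library size alone). Which cells of the liver carried these transcripts was not tested.

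**Figure D2:**
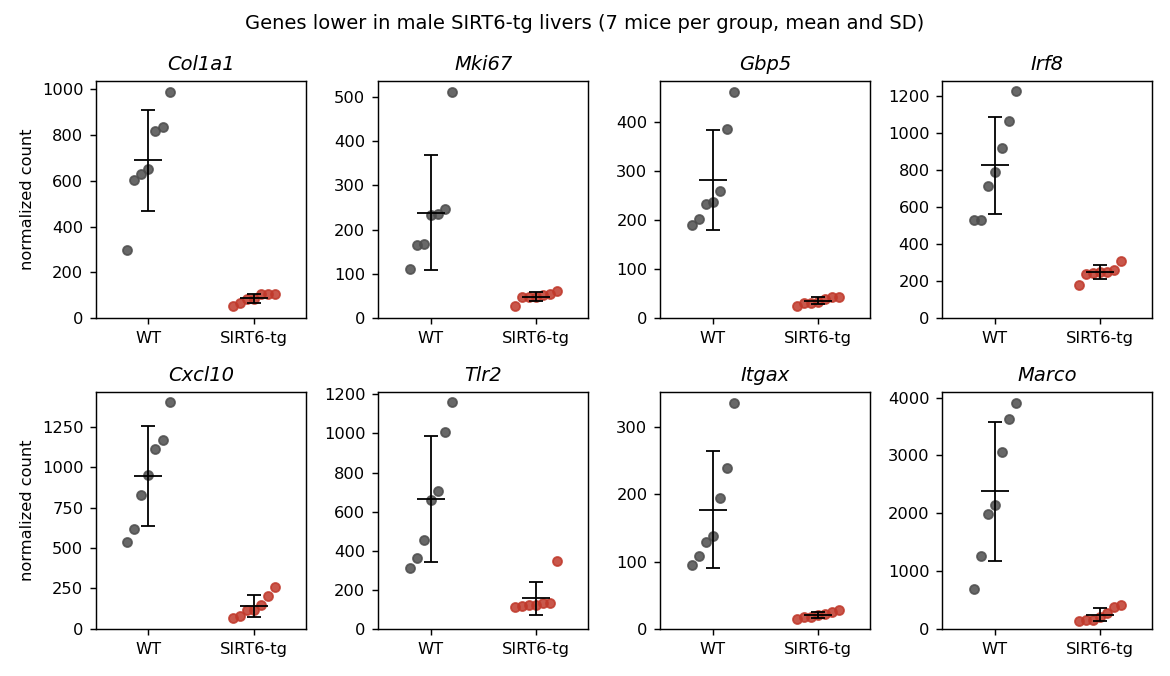
Normalized counts of 8 genes lower in male SIRT6-tg than in male WT liver, linear axes from 0. Each point is 1 mouse, 7 per group, sorted by value, and the black mark and bars give the mean and SD. Apart from Tlr2, where 1 SIRT6-tg library reaches into the WT range, every SIRT6-tg point lies below every WT point.

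Interferon-inducible GTPases were lower in nearly every member. Of 18 guanylate-binding proteins and immunity-related GTPases, which arm cells against intracellular microbes, 17 were lower and 0 higher, with a median log2 fold change of −2.58. Gbp5 ran from 191 to 461.5 (median 237) in WT and from 23.9 to 44.1 (median 34) in SIRT6-tg males, and fell by 2.98 on the log2 scale (SE 0.27, adjusted p = 1.34e-08). Gbp2 fell by 3.08 (SE 0.29, adjusted p = 2.79e-08). Tgtp1, whose reads may be shared with a close copy and so are uncertain, fell by 4.79 (SE 0.68, adjusted p = 8.91e-06). GAAACNGAA was in 7 of 11 promoters of the 10 members that have one in the promoter table, against 1.88% of all promoters.

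Some of the factors that relay interferon signals fell with them. Irf8, the myeloid interferon regulatory factor, ran from 532 to 1229 (median 789.5) in WT and from 180.2 to 310.2 (median 249) in SIRT6-tg males, with no overlap. Irf8 fell by 1.74 (SE 0.17, adjusted p = 2.79e-08) and Irf1, induced by interferon gamma, by 1.28 (SE 0.17, adjusted p = 1.62e-06). Irf3, a constitutively made interferon regulatory factor, rose by 0.43 (SE 0.11, adjusted p = 0.00372). Scaled by library size alone it stood at 0.14 and did not pass. Of 25 genes of the type I response 16 were lower and 0 higher, with a median of −0.78, among them Zbp1, a sensor of nucleic acid, at −2.05 (SE 0.28, adjusted p = 3.92e-06). Bst2, an antiviral tether, did not pass, at −0.35 (adjusted p = 0.305), but was called lower under library size alone (−0.66), with 2 surrogate variables (−0.37) and with the length slope (−0.53). Of 7 SLFN genes 6 were lower, with Slfn2 at −1.65 (SE 0.21, adjusted p = 9.05e-07), of 9 IFI200 genes 8 were lower, and of 8 GIMAP genes, GTPases of lymphocytes, 7 were lower, with 0 higher in each family. Socs1, the feedback inhibitor of this pathway, fell by 2.62 (SE 0.26, adjusted p = 2.36e-08).

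Of 15 genes of the immunoproteasome and MHC class I loading 7 were lower and 0 higher, and 12 were lower under library size alone. Tap1, the peptide transporter, fell by 1.45 (SE 0.23, adjusted p = 1.95e-05), and H2-D1, a class I heavy chain, by 0.65 (SE 0.15, adjusted p = 0.00262). B2m, the light chain shared by class I proteins, did not pass, at −0.16 (adjusted p = 0.528), but was called lower under library size alone (−0.47) and with the length slope (−0.31). The class I genes are near-identical copies, so their counts are uncertain.

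Many signals that recruit and activate leukocytes were lower. Of 52 chemokines and receptors 32 were lower and 0 higher, with a median of −1.35. Cxcl10, an interferon-induced attractant, ran from 537 to 1399 (median 948) in WT and from 69.8 to 259.8 (median 119) in SIRT6-tg males, and fell by 2.74 (SE 0.28, adjusted p = 5.92e-08). Ccl3 and Ccl4, chemokines of macrophages, differed by −4.19 (SE 0.45, adjusted p = 1.03e-07) and −4.71 (SE 0.5, adjusted p = 8.58e-08). Ccl8, an attractant of monocytes, had 0 to 4.42 normalized counts in SIRT6-tg males and 16 to 254 in WT. It differed by −5.38 (SE 0.75, adjusted p = 5.52e-06). Cxcl12, a chemokine made constitutively, did not pass, at 0.12 (adjusted p = 0.567; −0.15 scaled by library size alone).

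Receptors and their relays fell as well. Of 12 toll-like receptors, which detect microbial products, 10 were lower and 0 higher. Tlr2, which binds bacterial lipoproteins, ran from 313 to 1159 (median 662) in WT and from 110.2 to 349.7 (median 123) in SIRT6-tg males. It fell by 2.10 (SE 0.30, adjusted p = 5.78e-06), and male SIRT6-tg 6 alone overlapped WT. Tlr1, its partner, fell by 2.16 (SE 0.26, adjusted p = 4.72e-07). Of 26 genes of NF-kB and TNF signalling 18 were lower and 0 higher, among them Traf1, an adaptor, by 2.36 (SE 0.25, adjusted p = 5.93e-08) and Tnfaip3, the A20 inhibitor, by 1.82 (SE 0.19, adjusted p = 7.92e-08). Tnfrsf1a, the widely made TNF receptor, did not pass, at −0.06 (adjusted p = 0.746), but was called lower under library size alone (−0.35). Of 30 TNF superfamily members 16 were lower and 0 higher, among them Tnfrsf9, a costimulatory receptor, at −4.70 (SE 0.60, adjusted p = 1.04e-06). Nlrp3, of the inflammasome, fell by 1.36 (SE 0.28, adjusted p = 0.000697), with 6 of 11 NLR genes lower.

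Interleukins and their receptors had members in both directions. Of 51, 21 were lower and 2 higher. Il1rn, the antagonist of interleukin 1, fell by 2.14 (SE 0.24, adjusted p = 1.29e-07). Il1rap, the co-receptor of interleukin 1 that hepatocytes make and secrete, ran from 2703 to 3853 (median 3315) in WT and from 4955 to 5988 (median 5463) in SIRT6-tg males. It rose by 0.71 (SE 0.10, adjusted p = 2.10e-06), with all SIRT6-tg values above all WT values.

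Working genes of phagocytes and other leukocytes fell. Of 23 genes of Fc receptor and ITAM signalling 21 were lower, of 28 regulators of actin and migration in leukocytes 25 were lower, and of 16 NADPH oxidase and phagosome genes 15 were lower, with 0 higher in each. Itgax, the CD11c integrin of dendritic cells and activated macrophages, ran from 94.7 to 336 (median 138) in WT and from 14.2 to 28.5 (median 19.9) in SIRT6-tg males, and fell by 3.09 (SE 0.26, adjusted p = 5.16e-09). Ptprc, the CD45 phosphatase of all leukocytes, fell by 1.71 (SE 0.17, adjusted p = 3.17e-08), Rac2, the leukocyte Rac GTPase, by 1.59 (SE 0.20, adjusted p = 5.90e-07), Ncf1, a subunit of the NADPH oxidase, by 1.39 (SE 0.17, adjusted p = 3.83e-07) and Clec7a, the beta-glucan receptor, by 2.31 (SE 0.27, adjusted p = 3.01e-07). Fgl2, Apobec3 and Rasal3, a secreted immune regulator, a cytidine deaminase that restricts viruses and a Ras GTPase-activating protein of leukocytes, fell by 2.28, 1.63 and 1.82 (SE 0.21, 0.15 and 0.17). Gpnmb, a glycoprotein of lipid-laden macrophages, had 23.9 to 206 normalized counts in WT and 1.09 to 3.09 in SIRT6-tg males, and fell by 5.42 (SE 0.55, adjusted p = 4.94e-08). Egr2, an immediate early factor of macrophages, fell by 3.61 (SE 0.38, adjusted p = 6.79e-08), and Atf3, a stress factor, by 1.91 (SE 0.34, adjusted p = 0.000131). Most immediate early genes were not called, however, with 6 of 25 lower, 0 higher and a median of −0.41.

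Most called markers of the cells that carry these genes were lower, to unequal degrees. Of 10 Kupffer cell markers 9 were lower, with summed counts of 12777 to 41392 in WT and 10466 to 17987 in SIRT6-tg males. Marco, a scavenger receptor, ran from 685 to 3911 (median 2140) in WT and from 131 to 408.5 (median 212) in SIRT6-tg males, a difference of −3.29 (SE 0.43, adjusted p = 2.46e-06). Adgre1, the F4/80 antigen, fell by 1.28 (SE 0.26, adjusted p = 0.00051), and Cd163, the haemoglobin scavenger receptor, did not pass, at −0.45 (adjusted p = 0.252). Of 8 NK cell markers 6 were lower, with Eomes, their transcription factor, at −3.99 (SE 0.54, adjusted p = 2.13e-06) and Prf1, perforin, at −2.81 (SE 0.41, adjusted p = 5.93e-06). Their summed counts ran from 193 to 870 in WT and from 48.5 to 131 in SIRT6-tg males. Gzmk, a granzyme of lymphocytes, fell by 5.12 (SE 0.57, adjusted p = 1.38e-07). Of 8 dendritic cell markers 6 were lower and of 8 B cell markers 4. The B cell count depended on the fit, with 8 lower under library size alone and with 2 surrogate variables, and 7 with the length slope. For dendritic cells the same fits gave 7, 6 and 7. Of 8 plasma cell markers 5 were lower, with Igha at −2.67 (SE 0.30, adjusted p = 3.01e-07), and 1 was higher, Xbp1 at 0.45 (adjusted p = 0.0113). Summed plasma cell markers ran from 8463 to 15866 in WT and from 7891 to 13781 in SIRT6-tg males. Xbp1 made up most of these sums, with means of 6185 in WT and 8452 in SIRT6-tg males. The sums therefore mainly follow Xbp1 and hide the falls of the 5 lower markers, whose list median was −1.28. None of the 9 neutrophil markers and none of the 8 cholangiocyte markers passed the test in edgeR or DESeq2, with 2 and 1 of them at an unadjusted p under 0.05. S100a9, a neutrophil calcium binder, stood at −0.68 (adjusted p = 0.194). It was called lower under library size alone (−1.0), with 2 surrogate variables (−0.73) and with the length slope (−0.99), and 3 of the 9 neutrophil markers were lower in each of the last 2 fits. The part of cell numbers in these falls was not tested.

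**Figure D3:**
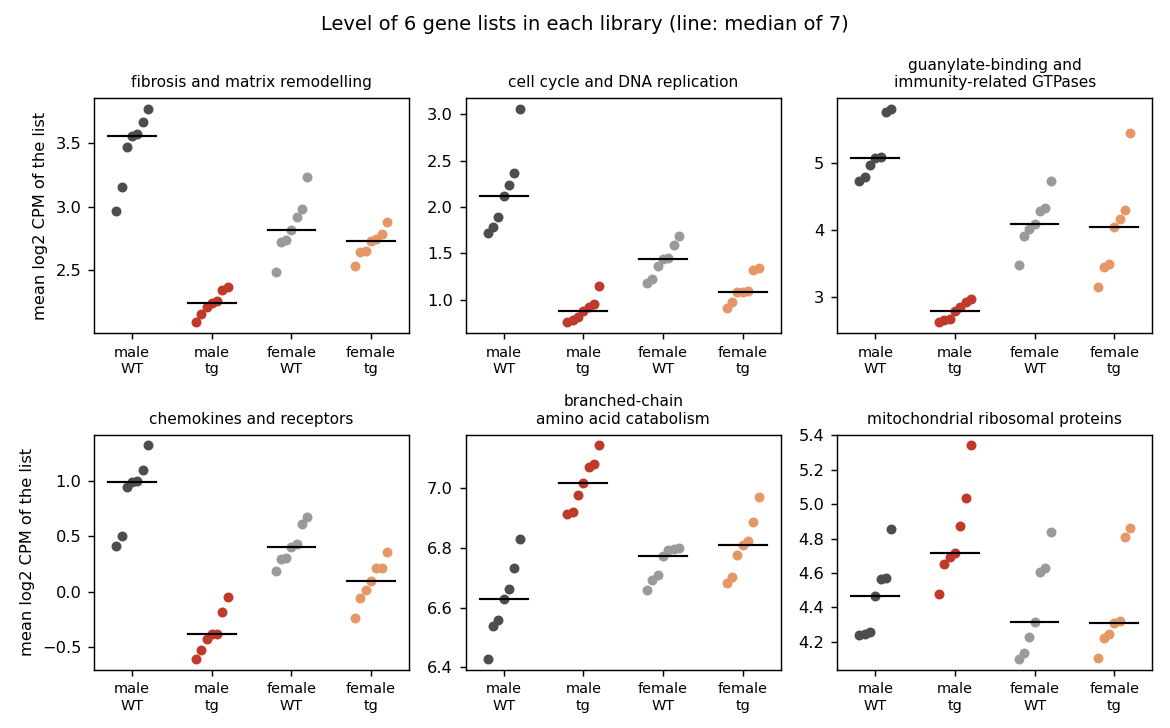
Mean log2 CPM over the members of 6 gene lists in each of the 28 libraries, 7 per group, with the group median as a line and axes that do not start at 0. Matrix, cell cycle, GTPase and chemokine levels were highest in male WT and lowest in male SIRT6-tg, with both female groups between them in their medians, and branched-chain amino acid levels were highest in male SIRT6-tg.

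Genes of amino acid breakdown were among the higher ones. Of 20 genes of branched-chain amino acid catabolism 17 were higher and 0 lower, with a median log2 fold change of 0.38 (1 higher and a median of 0.10 under library size alone). Mccc2, a subunit of the leucine-degrading carboxylase, ran from 1558 to 1858 (median 1698) in WT and from 2172 to 2865 (median 2424) in SIRT6-tg males, and rose by 0.53 on the log2 scale (SE 0.09, adjusted p = 4.50e-05). Of 12 genes of tyrosine, phenylalanine and histidine catabolism 10 were higher and 0 lower, with a median of 0.45. Upper-quartile scaling left 6 of them higher and library size alone 2. Hal, which starts histidine breakdown, rose by 0.74 (SE 0.13, adjusted p = 9.18e-05), Amdhd1, further along, by 0.67 (SE 0.10, adjusted p = 5.87e-06), and Ftcd, the last enzyme, by 0.51 (SE 0.10, adjusted p = 0.000345; 0.23 scaled by library size alone, where it did not pass). Hal ran from 6339 to 9931 (median 8833) in WT and from 11439 to 17200 (median 13938) in SIRT6-tg males.

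Nitrogen and one-carbon genes gave higher calls that rested on the scaling. Of 15 genes of tryptophan catabolism and NAD synthesis 10 were higher and 0 lower (2 and 2 by library size alone), with Haao, of the kynurenine route, at 0.59 (SE 0.10, adjusted p = 5.21e-05). Of 24 genes of methionine and one-carbon metabolism 14 were higher and 1 lower, against 9 and 3 under upper-quartile scaling and 1 and 4 by library size alone. Shmt1, the cytosolic serine hydroxymethyltransferase, rose by 0.54 (SE 0.10, adjusted p = 0.000234; 0.26 scaled by library size alone, where it did not pass). Of 12 urea cycle and ammonia genes 8 were higher and 1 lower, and 0 higher and 2 lower by library size alone. Gls2, the liver glutaminase, stood at 0.56 (SE 0.12, adjusted p = 0.00067; 0.27 scaled by library size alone, where it did not pass). Cps1, the entry enzyme of the urea cycle, did not pass, at 0.23 (adjusted p = 0.320; −0.04 scaled by library size alone). Maoa, which deaminates serotonin and noradrenaline, rose by 0.62 (SE 0.08, adjusted p = 6.52e-07), Dpys, of pyrimidine breakdown, by 0.65 (SE 0.09, adjusted p = 1.51e-06), and Csad, which makes the taurine precursor, by 1.62 (SE 0.39, adjusted p = 0.00366). These 3 were separate in every library.

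**Figure D4:**
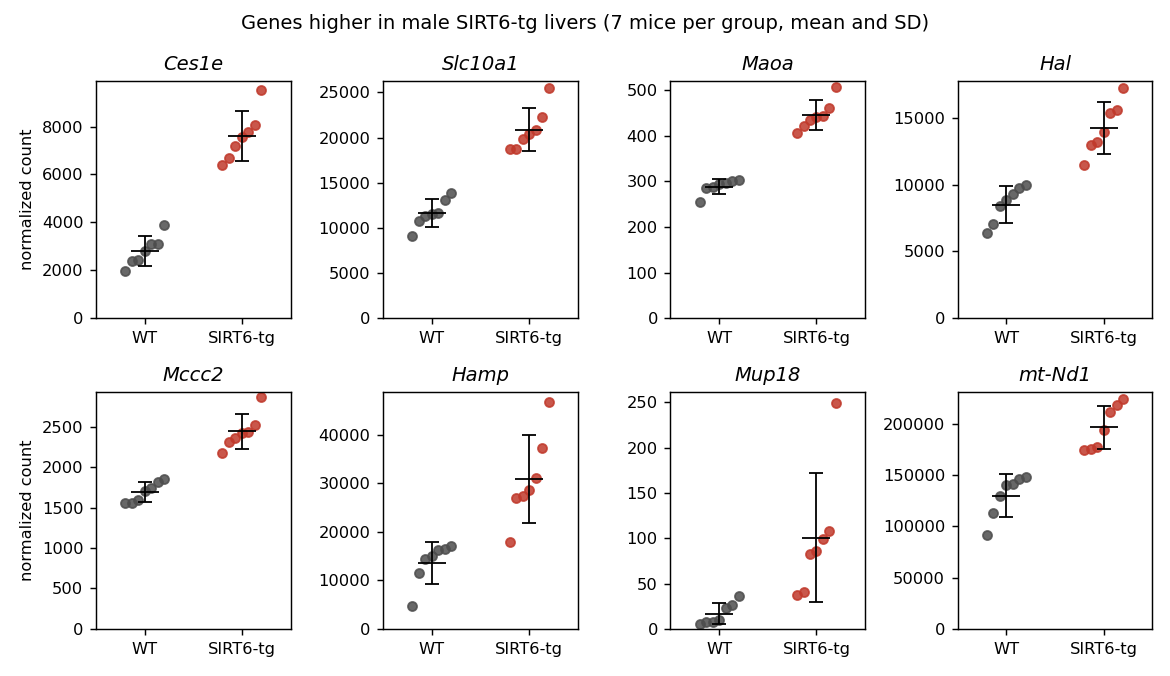
Normalized counts of 8 genes higher in male SIRT6-tg than in male WT liver, linear axes from 0. Each point is 1 mouse, 7 per group, sorted by value, and the black mark and bars give the mean and SD. The groups do not overlap in any panel, and Mup18 rests on low counts with 1 SIRT6-tg mouse at 249.

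Carboxylesterases, which hydrolyse esters of lipids and drugs, had 8 of 16 members higher and 0 lower, with a median of 0.41. Ces1e (chromosome 8, positions 93201218 to 93229619, minus strand, GRCm38) ran from 1989 to 3879 (median 2807) in WT and from 6401 to 9523 (median 7569) in SIRT6-tg males. It rose by 1.43 (SE 0.13, adjusted p = 1.34e-08). Ces2a, which can hydrolyse triglyceride, rose by 1.01 (SE 0.11, adjusted p = 1.32e-07) and Ces1f by 0.77 (SE 0.12, adjusted p = 1.42e-05). Under library size alone 5 of the 16 were still higher. These genes lie in clusters of close copies, so reads shared between them leave single values uncertain.

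Genes of bile acids and of drug handling were also among the higher ones. Slc10a1, the NTCP transporter that takes bile acids from blood, ran from 9070 to 13861 (median 11560) in WT and from 18680 to 25437 (median 20343) in SIRT6-tg males. It rose by 0.85 (SE 0.09, adjusted p = 9.07e-08). Of 13 bile acid synthesis enzymes 8 were higher and 0 lower, and 1 was higher by library size alone. Baat, which joins bile acids to taurine and glycine, stood at 0.41 (SE 0.08, adjusted p = 0.000526; 0.13 scaled by library size alone, where it did not pass). Of 40 cytochromes P450 of family 2, 19 were higher and 2 lower (7 and 3 by library size alone). Cyp2j5, an epoxygenase, rose by 0.60 (SE 0.09, adjusted p = 5.75e-06) and Cyp2f2, of periportal hepatocytes, by 0.65 (SE 0.10, adjusted p = 1.27e-05). Cyp2a4, a steroid hydroxylase that is higher in females, fell by 1.81 (SE 0.60, adjusted p = 0.0334) with a wide WT range of 31.3 to 788. It lost its call without any 1 of male WT 5 or 6 or male SIRT6-tg 1, 2, 4 or 6 (−2.06 to −1.30 over all 14 left out in turn). The call was also lost with the replicate block (−1.42), no low-count filter (−1.81), males only (−1.84) and without the 2 steepest libraries (−1.78). Cyp1b1, made outside hepatocytes, fell by 1.92 (SE 0.26, adjusted p = 1.92e-06).

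Steroid and conjugating enzymes varied within their families. Of 15 hydroxysteroid dehydrogenases 8 were higher and 0 lower (2 higher by library size alone), with Hsd3b5, a male-biased enzyme, at 1.41 (SE 0.27, adjusted p = 0.000285) and Hsd11b1, which regenerates glucocorticoid, at 0.59 (SE 0.11, adjusted p = 0.000219). Sult2a7, a sulfotransferase, rose by 2.30 (SE 0.50, adjusted p = 0.00147), yet of 19 sulfotransferases 2 were higher. Sult2a7 was higher in females, with normalized counts of 131.4 to 2099 in female WT against 10.07 to 38.67 in male WT. Its rise in SIRT6-tg males therefore went the other way from the fall of Cyp2a4, which is also higher in females. Of 24 glutathione S-transferases 9 were higher and 3 lower (3 and 3 by library size alone). Gstt1 rose by 0.58 (SE 0.10, adjusted p = 5.93e-05) and Gstm3 fell by 1.31 (SE 0.31, adjusted p = 0.00288), with male WT 6 at 6931 above the other WT libraries at 1450 to 3789.

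Mitochondrial, peroxisomal and protein-making families had higher members with small differences, and these calls also rested on the scaling. Of 78 mitochondrial ribosomal proteins 34 were higher and 0 lower, with a median of 0.38. Upper-quartile scaling gave 15, and scaling by library size alone gave 0 with a median of 0.08. Mrpl39 ran from 813 to 934 (median 880) in WT and from 1011 to 1219 (median 1104) in SIRT6-tg males, and rose by 0.38 (SE 0.07, adjusted p = 0.000178). Of 37 complex I subunits 13 were higher, among them Ndufs1 at 0.40 (SE 0.08, adjusted p = 0.000479), of 16 ATP synthase subunits 5, with Atp5b at 0.35 (SE 0.08, adjusted p = 0.00123), and of 8 mitochondrially encoded genes 6, with 0 lower in each. Of 15 complex IV subunits 4 were higher and 1 lower. By library size alone 1 mitochondrially encoded gene and 0 genes of the other 3 families were higher, and Mrpl39, Ndufs1, Atp5b and mt-Cytb did not pass. mt-Nd1 rose by 0.60 (SE 0.11, adjusted p = 0.000137) and mt-Cytb by 0.55 (SE 0.14, adjusted p = 0.00388). With the length slope as a covariate 35 of the 37 complex I subunits were higher with a lower median, 0.32 in place of 0.54.

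Related families were counted in the same way. Of 18 TCA cycle genes 12 were higher, with Idh3b, of the NAD-dependent isocitrate dehydrogenase, at 0.53 (SE 0.08, adjusted p = 1.85e-05). Of 17 peroxins, which build peroxisomes, 12 were higher, with the import receptor Pex5 at 0.35 (SE 0.08, adjusted p = 0.00118). Of 9 chaperonin subunits, which fold actin and tubulin, 8 were higher, with Tcp1 at 0.37 (SE 0.06, adjusted p = 7.53e-05). Of 31 translation factors 12 were higher, with Eef1a1, which brings aminoacyl-tRNA to the ribosome, at 0.41 (SE 0.09, adjusted p = 0.00146). Upper-quartile scaling left 6 TCA genes, 2 peroxins, 3 chaperonin subunits and 3 translation factors higher, and library size alone left 1, 0, 0 and 0, with the median of the translation factors at −0.01. Of 87 cytosolic ribosomal protein genes 3 were higher and 1 lower in the TMM fit, although their median was 0.33.

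**Figure D5:**
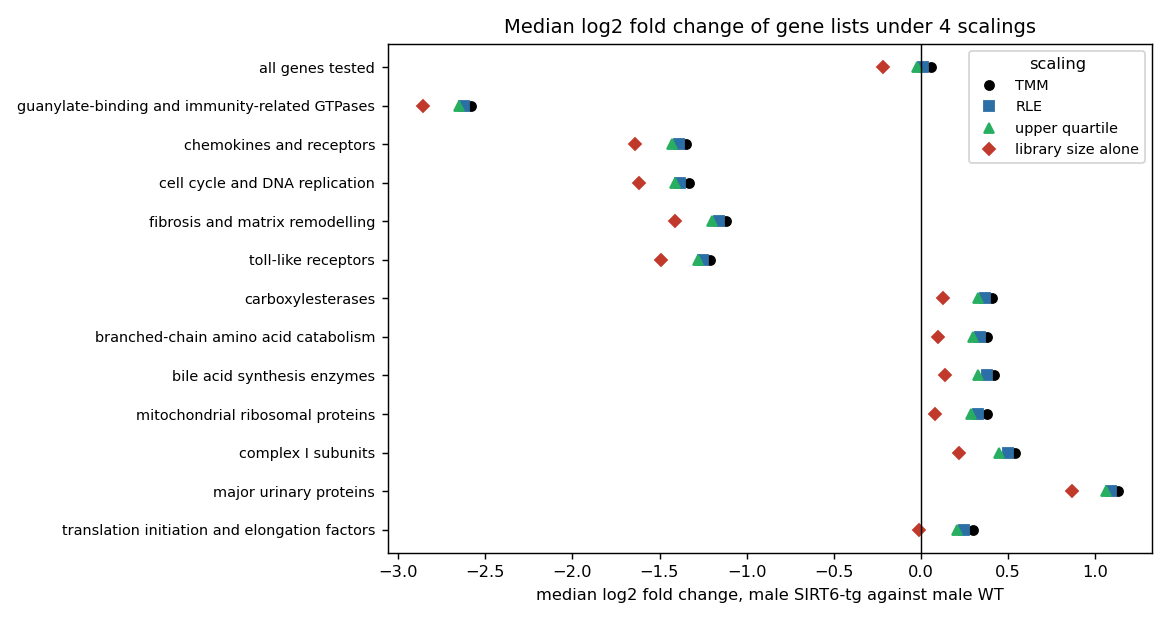
Median log2 fold change of 12 gene lists and of all genes tested, male SIRT6-tg against male WT, under 4 scalings given by the marker shapes. Every marker moves left under library size alone, by about the shift of all genes. The lower lists stay far below 0, while translation factors reach −0.01, the major urinary proteins 0.87 and the other higher lists 0.08 to 0.22.

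Secreted proteins split by kind. Alb, the albumin gene, rose by 0.35 (SE 0.11, adjusted p = 0.0204), and did not pass under upper-quartile scaling (0.27) or library size alone (0.07). It also lost its call without any 1 of male WT 3, 4 or 7 or male SIRT6-tg 4 (0.29 to 0.43 over all 14 libraries left out in turn). Of 32 major urinary protein genes, pheromone carriers made by the male liver, 19 were higher and 0 lower, with a median of 1.13. Mup3 ran from 119893 to 184438 (median 139477) in WT and from 194669 to 430169 (median 265700) in SIRT6-tg males, and rose by 0.94 (SE 0.19, adjusted p = 0.000538). Mup18, at far lower counts, rose by 2.53 (SE 0.46, adjusted p = 0.000173). The genes are near-identical, so reads may be divided arbitrarily among them. Of 22 genes of the growth hormone and IGF1 axis, which drives male-type expression of such genes, 3 were higher and 1 lower (0 and 6 by library size alone). These are 13.6% and 4.5%, against 9.68% and 11% of all genes tested, and their median log2 fold change was −0.11. A link between this axis and the major urinary proteins was not tested. Igfals, the partner of circulating IGF1, rose by 0.58 (SE 0.13, adjusted p = 0.00217) and Ghr, the growth hormone receptor, by 0.44 (SE 0.11, adjusted p = 0.00302), and neither passed under library size alone (0.30 and 0.17).

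Of 17 genes of apolipoproteins and lipoprotein assembly 7 were higher and 0 lower (2 and 1 by library size alone), and of 29 iron and heme genes 7 were higher and 1 lower (1 and 5). Apoa5, an apolipoprotein that aids lipoprotein lipase, rose by 0.67 (SE 0.12, adjusted p = 0.000155). Hamp, the iron hormone hepcidin, ran from 4709 to 17183 (median 14979) in WT and from 18022 to 46818 (median 28608) in SIRT6-tg males. It rose by 1.18 (SE 0.22, adjusted p = 0.000196). Of 33 coagulation and fibrinolysis genes 14 were higher and 7 lower (0 and 9 under library size alone). Serpinc1, antithrombin, and F2, prothrombin, rose by 0.39 and 0.40 (SE 0.07 and 0.10), both made by hepatocytes, and neither passed under library size alone (0.11 and 0.12). Thbd, the thrombin receptor of endothelium, fell by 0.81 (SE 0.14, adjusted p = 4.64e-05) and F13a1, a clot cross-linker of macrophages, by 1.59 (SE 0.32, adjusted p = 0.000405).

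Acute phase proteins, which hepatocytes secrete in inflammation, had 5 of 22 higher and 5 lower, against 1 and 5 under upper-quartile scaling and 0 and 9 by library size alone. Lcn2, the iron-siderophore binder, ran from 598 to 3071 (median 2077) in WT and from 78.6 to 218 (median 128) in SIRT6-tg males, and fell by 3.75 (SE 0.61, adjusted p = 5.83e-05). Saa2, serum amyloid A, fell by 2.77 (SE 0.47, adjusted p = 8.96e-05) and Orm2, an orosomucoid, by 2.28 (SE 0.52, adjusted p = 0.00218). In the SERPINA family 7 of 22 were higher and 3 lower (3 and 5 by library size alone). Serpina1d, an alpha-1-antitrypsin, rose by 0.59 (SE 0.09, adjusted p = 6.98e-06), and Serpina3g, an immune-induced member, fell by 2.56 (SE 0.23, adjusted p = 1.34e-08). Both belong to clusters of close copies.

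Of 24 glycolysis genes 9 were higher and 5 lower, against 2 and 5 under upper-quartile scaling and 0 and 6 by library size alone. Pkm, Pfkp and Hk3, forms used by leukocytes and proliferating cells, differed by −1.36 (adjusted p = 1.26e-06), −1.5 (adjusted p = 1.18e-07) and −2.0 (adjusted p = 7.16e-06). Of 7 ketone genes 4 were higher and 1 lower (1 and 1 by library size alone). Acat1, of ketone synthesis, rose by 0.59 (SE 0.11), while Oxct1, which uses ketones and is low in hepatocytes, fell by 1.25 (SE 0.17, adjusted p = 3.75e-06). The part of leukocyte markers in the falls of Pkm, Pfkp, Hk3 and Oxct1 was not tested.

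Some families of interest gave few calls. None of 21 circadian clock genes and none of 13 chromatin and metabolic regulators linked to SIRT6 passed the test in edgeR with TMM or in DESeq2, with 3 and 1 of them at an unadjusted p under 0.05. Upper-quartile scaling called 2 clock genes lower, and 2 surrogate variables called 3 higher and 1 lower. Of 40 histone genes 1 was higher and 1 lower, and none of 16 claudins or 12 SOX factors was called by edgeR, with 2 and 4 at an unadjusted p under 0.05 and 0 and 1 called by DESeq2. Of 385 zinc finger protein genes 40 were higher (10.4%) and 9 lower (2.34%), against 9.68% and 11% of all genes tested. The higher share is close to the background and the lower share is below it. By library size alone 1 was higher and 37 lower. Among other named genes, Cnmd, a chondromodulin, rose by 2.24 (SE 0.27, adjusted p = 3.24e-07). Slc7a11, the cystine transporter, fell by 3.68 (SE 0.67, adjusted p = 0.000138), but at low counts, 2.67 to 24.8 in WT and 0 to 2.21 in SIRT6-tg males. Xbp1, of the unfolded protein response, rose by 0.45 (SE 0.13, adjusted p = 0.0113), a call lost under upper-quartile scaling (0.36) and library size alone (0.16).

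The female groups show where the male effect of genotype differed. Sirt6 itself rose by 3.39 on the log2 scale in females, against 6.68 in males. Sex and the level of Sirt6 therefore cannot be told apart where the 2 effects differ. In the same edgeR fit 6 genes (0.0278%) differed between female SIRT6-tg and female WT. A test of the difference itself found a male effect unlike the female one for 1089 genes (5.05%). Of the genes lower in males 825 of 2377 were among these, and of the genes higher in males 231 of 2090. The male values enter both the calls and this test, so these counts are partly set by the choice of genes. For the matrix list 22 of 37 genes differed between the sexes, and its median log2 fold change was −0.11 in females. The median of the interferon GTPases was 0.07 and that of the cell cycle list −0.35 in females. The levels in each group were as follows. The mean log2 CPM of the matrix list was 2.96 to 3.77 in male WT and 2.09 to 2.37 in male SIRT6-tg, with 2.48 to 3.24 in female WT and 2.54 to 2.88 in female SIRT6-tg libraries. For the GTPases it was 4.73 to 5.82 and 2.62 to 2.97 in males, and 3.48 to 4.74 and 3.14 to 5.46 in females. For chemokines and receptors it was 0.417 to 1.33 and −0.611 to −0.0509 in males, and 0.185 to 0.675 and −0.244 to 0.363 in females. Male WT was the group with the highest levels in these lists, and whether the male effect rests on the level in male WT or in male SIRT6-tg was not tested.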

How the data were processed

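The authors prepared libraries from whole-liver total RNA with the NEBNext Ultra kit, per the submitters' processing notes used STAR 2.5.0a, HTSeq and mm10, and the deposited values are raw read counts with no normalization. The strand setting of the counting is not given in the sources used here, so antisense and overlapping genes cannot be told apart. Groups came from the sex and genotype in the labels, and each library was taken as 1 mouse. Total counts per male library were 18758863 to 35393069.

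Genes with a mean count of at least 0.5 after scaling with size factors were kept. TMM factors and the robust quasi-likelihood test in edgeR 4.0.16 (R 4.3.3) were applied, with all 28 libraries in 1 fit, no covariate and Benjamini-Hochberg adjustment at 0.05, over all 21583 genes. A normalized count is the count scaled to the mean effective library size, and log2 CPM used a prior count of 2. SE is the log2 fold change divided by the root of F. The script was tested on simulated data. Gene symbols and positions came from Gencode vM21 and promoters from RefSeq. No 2 libraries of a group agreed within sampling noise (chi-square per gene at least 13.3).

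Named genes were, outside the lists set aside, the 10 with the lowest adjusted p in each direction without overlap, the 8 with the highest mean and the 8 with the largest change and a group mean of at least 50, up to 3 called genes per direction and the most abundant uncalled gene of each list, all members of lists with 8 or fewer, and the sirtuins. Some genes that meet this rule are not reported here. The members and lists were chosen with earlier results of these data known. Alternatives were RLE, upper-quartile and library size scaling, filterByExpr, no filter, DESeq2 1.42.0, the replicate number as a block, 2 surrogate variables (sva 3.50.0), males only, a fold of at least 1.5 and each library left out. The length slope as a covariate and the fit without the 2 steepest libraries were chosen after seeing the data.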

Additional observations from a re-analysis of the deposited data

Results flagged for a closer look

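For 82 of the 127 named genes the genotype effect differed between males and females in the edgeR fit, against 1089 (5.05%) of all genes tested. Many named genes were picked by the male comparison, whose values enter this test, so the count is partly set by that choice. Sex and the level of Sirt6 cannot be told apart in it. Values for the 82 genes are the male minus the female log2 fold change, with adjusted p under 0.05 for each. Sirt6 differed by 3.29. Matrix and protease genes differed as Col1a1 −2.57, Col1a2 −1.68, Col3a1 −1.92, Col6a3 −1.51, Col27a1 1.12, Mmp12 −4.04, Mmp2 −1.33 and Mmp13 −2.56. Cell cycle and repair genes differed as Ccna2 −1.84, Top2a −1.79, Mki67 −1.92, Foxm1 −2.18 and Cdkn1a −1.62. Interferon-linked genes differed as Gbp5 −2.79, Gbp2 −2.83, Tgtp1 −5.03, Zbp1 −2.13, Irf8 −1.33, Irf1 −1.23, Slfn2 −1.17, Tap1 −1.44, Socs1 −2.31, Apobec3 −1.33 and Serpina3g −2.19. Chemokine, cytokine and receptor genes differed as Cxcl10 −2.04, Ccl4 −3.73, Ccl3 −3.65, Ccl8 −4.67, Il1rn −1.99, Il1rap 0.70, Tnfrsf9 −3.49, Tlr1 −1.85, Tlr2 −1.46, Traf1 −1.64, Tnfaip3 −1.40 and Nlrp3 −1.34. Leukocyte genes differed as Itgax −2.56, Fgl2 −2.0, Rasal3 −1.55, Ptprc −1.43, Ncf1 −1.02, Rac2 −1.19, Marco −2.45, Eomes −3.55, Prf1 −2.96, Gpnmb −4.84, Gzmk −4.23, Igha −2.17, Clec7a −2.07 and Egr2 −2.86. Slc7a11, at low counts, differed by −3.43. Amino acid and energy genes differed as Amdhd1 0.63, Hal 0.75, Ftcd 0.65, Mccc2 0.45, Haao 0.58, Gls2 0.71, Maoa 0.57, Pfkp −1.41, Pkm −1.10, Hk3 −1.76, Oxct1 −1.02, Idh3b 0.51, Atp5b 0.38, Eef1a1 0.47 and Pex5 0.42. Enzymes, transporters and secreted proteins differed as Ces1e 1.21, Ces2a 1.01, Ces1f 0.70, Cyp2j5 0.42, Cyp2f2 0.66, Cyp1b1 −1.56, Slc10a1 0.56, Hsd11b1 0.55, Apoa5 0.76, Hamp 1.10, F2 0.46, Thbd −0.71, Serpina1d 0.60, Cnmd 1.59 and Xbp1 0.80.

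In 27 of 254 groups of 7 values 1 library lay apart from the others by the gap test at the 95% level, where chance flags about 1 in 20. In male WT 6 this held for Sirt6 at 44.8 (the other 6 at 70.4 to 85.9), Bst2 at 12778 (the other 6 at 4671 to 7349), Ccl4 at 303 (the other 6 at 45.3 to 140.1), Ccl8 at 254 (the other 6 at 16 to 116), Cps1 at 57610 (the other 6 at 86742 to 102364), Gstm3 at 6931 (the other 6 at 1450 to 3789) and Atp5b at 25847 (the other 6 at 30918 to 34668). In male WT 7 this held for Ccna2 at 188 (the other 6 at 48.5 to 104), Top2a at 464 (the other 6 at 136 to 275), Mki67 at 512 (the other 6 at 110.3 to 247) and Foxm1 at 96.7 (the other 6 at 21.9 to 51.4). In male WT 5 this held for Sult2a7 at 38.7 (the other 6 at 10.1 to 20.4) and Alb at 2834203 (the other 6 at 1812601 to 2243517). In male SIRT6-tg 6 this held for Ccl3 at 12.1 (the other 6 at 3.32 to 5.97), Tlr2 at 349.7 (the other 6 at 110.2 to 134), Tnfaip3 at 157 (the other 6 at 59.2 to 101), Tnfrsf1a at 3134 (the other 6 at 2326 to 2582) and Rac2 at 247 (the other 6 at 128 to 175). In male SIRT6-tg 7 this held for Top2a at 101 (the other 6 at 39.3 to 60.3), Acat1 at 14191 (the other 6 at 11968 to 12601) and Mup18 at 249 (the other 6 at 37.3 to 108). The rest were Mki67 at 26.8 in male SIRT6-tg 4 (the other 6 at 47 to 61.4), Maoa at 256 in male WT 2 (the other 6 at 286 to 302), Baat at 7425 in male WT 1 (the other 6 at 4643 to 5841), F2 at 43284 in male WT 4 (the other 6 at 48046 to 51362), Thbd at 163 in male WT 2 (the other 6 at 109 to 124) and Atf3 at 382 in male WT 1 (the other 6 at 103 to 214).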

How the results depend on the processing

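Counts of all different, higher and lower genes were 3591, 942 and 2649 under upper-quartile scaling and 4294, 210 and 4084 under library size alone, where 1863 genes differed between the sexes. They were 7440, 4460 and 2980 with 2 surrogate variables (2763 between the sexes), 7174, 4260 and 2914 with the length slope as a covariate (2584), and 2502, 426 and 2076 with a fold change of at least 1.5 besides. Leaving out 1 library gave 3301 to 4811 different, 1095 to 2446 higher and 2144 to 2483 lower genes, 801 to 1242 between the sexes, and a Sirt6 log2 fold change of 6.59 to 6.75. With the replicate block 4209 genes differed, 1938 higher and 2271 lower, with 989 between the sexes and Sirt6 at 6.66. The correlation of same-numbered deviations was 0.314, 0.456, −0.345, −0.423, 0.407, 0.477 and −0.053. Male WT 1 matched best with its own number, and the other male WT libraries did not. No level expected without pairing was worked out, so these values cannot tell whether the numbers mark a pairing. Under library size alone the log2 fold change changed sign for Sirt1 (−0.15), Sirt2 (−0.00), Sirt4 (−0.07), Pcna (−0.17), Cxcl12 (−0.15) and Cps1 (−0.04), of which Sirt2 had been called. Of the 117 named genes called, 93 kept direction and call in every fit, and 21 kept their direction but lost their call under library size alone, where 4 of the 10 uncalled gained one. The block ended the calls on Cyp2a4 and Pecam1 among named genes.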
